A study of Homo sapiens with 6 samples.

Results

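RNA levels of 10 genes that govern passage through G1 of the cell cycle are described here in 2 human lung cancer cell lines: the pocket proteins RB1 and RBL1, the transcription factor E2F3, the cyclins CCND1, CCND3 and CCNE1, the kinases CDK2, CDK4 and CDK6, and the inhibitor CDKN1B. They were chosen by gene symbol from a table of 12659 genes, in which 9 of the 10 were found; CDK2 was not analysed here. All 9 passed the filter on low values in both lines. NCI-H1650 is an established lung adenocarcinoma line that carries an activating EGFR deletion, and the labels place it before transformation (pre-LUAD). NCI-H1650Re is a line derived from it, which the labels place after transformation to small cell lung cancer (post-SCLC), so the comparison sets the state before that change beside the state after it. Polyadenylated RNA was sequenced from 3 libraries of each line, 6 in all, with no treatment named for either. The labels describe no other derivative, and replicates are not described as separate cultures. P-values therefore reflect no more than the spread among these libraries, which may be technical.

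In G1, cyclin D bound to CDK4 or CDK6 starts the phosphorylation of RB1, which otherwise holds activating E2F factors in check, and cyclin E with CDK2 completes it. The freed E2F factors then switch on genes for DNA synthesis. Loss of RB1 function is a hallmark of small cell lung cancer, while many adenocarcinomas keep RB1 and raise cyclin D activity instead.

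Levels are in fragments scaled to transcript length and library total (FPKM), so that genes of different length can be set beside each other. Differences are given on the log2(FPKM + 1) scale as log2 changes, positive where NCI-H1650Re was higher; the added 1 understates fold changes of genes with low levels. They were tested with limma over all genes whose mean reached 1 FPKM in one line or both, and a gene was called where its Benjamini-Hochberg adjusted p was under 0.05. Of 11764 genes tested, 30.5% were called, and for 47.2% the libraries of the lines did not overlap. Relative depth, from counts and FPKM of 307 genes, ran from 0.863 to 1.13 of the average library. The epithelial markers EPCAM, KRT8, KRT18, CDH1 and CLDN4 all had values, summing to between 2135 and 2854 FPKM in NCI-H1650 libraries and between 1909 and 2045 in those of NCI-H1650Re, and 3 of the 5 fell. Of 7 small cell lung cancer markers 2 were analysed. CHGA was at 0.110, 0.350 and 1.23 FPKM before and at 2.22, 5.15 and 2.79 FPKM after (limma adjusted p = 0.0101). With a mean of 0.563 FPKM in NCI-H1650, it passed the filter only through NCI-H1650Re, so its p-value is not used as support. SYP was at 1.15, 1.12 and 1.41 and at 1.79, 1.78 and 1.37 FPKM (limma adjusted p = 0.124). Of 5 fibroblast markers 1 was analysed, COL1A1, at 0.980 to 1.05 FPKM before and 1.05 to 2.69 FPKM after, and none of 5 leukocyte markers was.

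The 2 cyclin D genes rose and cyclin E1 fell, while RB1, RBL1, E2F3, CDK4, CDK6 and CDKN1B did not pass the test. Over all genes tested, 16.6% rose and 13.9% fell. The 3 calls among 9 members, 33.3%, lie near the background of 30.5%, so the number of calls is not a result about these genes. The same holds for the 4 members whose libraries did not overlap, beside a background of 47.2%. The members' median log2 change was 0.07, against 0.03 over all genes tested. In the authors' deposited table, the same 3 members, CCND1, CCND3 and CCNE1, had an FDR under 0.05, against 27.9% of all genes there, and none of the 3 carried the authors' mark for up- or down-regulation.

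**Figure D1:**
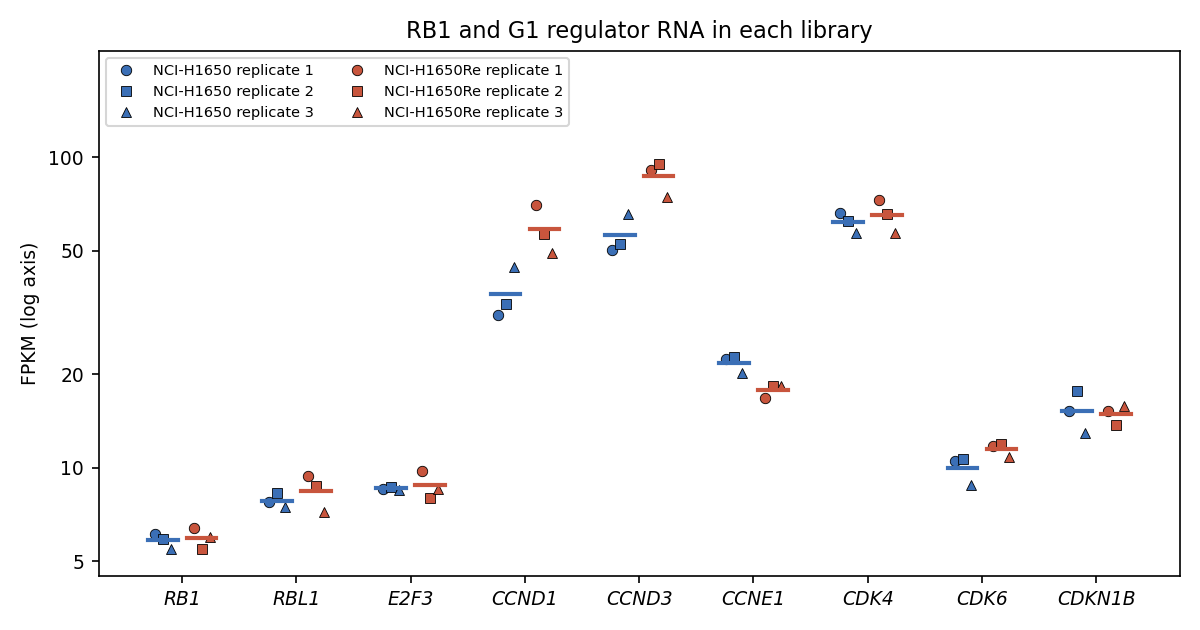
FPKM (log axis) of the 9 members in each library, with NCI-H1650 in blue and NCI-H1650Re in red; marker shapes give the replicate and lines the mean of 3. CCND1 and CCND3 lie higher and CCNE1 lower in every NCI-H1650Re library, while the points of RB1, RBL1, E2F3, CDK4 and CDKN1B overlap between the lines.

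RB1, the retinoblastoma protein gene, was at 6.14, 5.91 and 5.50 FPKM in NCI-H1650 and at 6.39, 5.50 and 6 in NCI-H1650Re. The highest of the 6 values is found in NCI-H1650Re, the lowest, 5.50, is found in both lines, and the lines overlap. The 95% interval of its log2 change, from -0.16 to 0.21, spans folds of 0.892 to 1.16 in FPKM + 1, which understates the range in FPKM itself. RBL1, which encodes the related pocket protein p107, was at 7.75, 8.31 and 7.50 FPKM in NCI-H1650 and at 9.40, 8.74 and 7.22 in NCI-H1650Re. NCI-H1650Re replicate 3 held its lowest level, and its log2 change of 0.09 (SE 0.10, limma adjusted p = 0.527) had an interval of -0.14 to 0.32. The ratio of RBL1 to RB1 within a library, which no scaling between libraries can alter, ran from 1.26 to 1.41 in NCI-H1650 and from 1.203 to 1.59 in NCI-H1650Re (exact two-sided permutation p = 0.7, adjusted p = 0.8 over 3 ratios). With 3 libraries per line, 0.1 is the smallest p such an exact test allows.

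The third pocket protein moved. RBL2, encoding p130, which with E2F4 and the MuvB core represses cell-cycle genes in resting cells, was at 34.3, 34.9 and 27.6 FPKM in NCI-H1650 and at 17.9, 19.0 and 19.5 in NCI-H1650Re. Every NCI-H1650Re library was below every NCI-H1650 library (log2 change -0.74, SE 0.10, limma adjusted p = 0.00206). RBL2 held 67.9% to 71.2% of the summed pocket protein RNA in NCI-H1650 and 53.1% to 59.6% in NCI-H1650Re, and that sum was 46.0 ± 4.71 and 33.2 ± 0.476 FPKM (SD, n = 3). The share of RB1 in the sum was 12.02% to 13.6% in NCI-H1650 and 16.5% to 19.0% in NCI-H1650Re. Of 11 pocket protein and MuvB genes, 2 rose, 1 fell and 8 did not pass (27.3% called, against 30.5%; median log2 change 0.09). The rises were those of FOXM1 (log2 change 0.69, limma adjusted p = 0.00184) and MYBL2 (0.26, limma adjusted p = 0.0399), which activate late cell-cycle genes together with MuvB. MYBL2 did not pass when any 1 library except NCI-H1650Re replicate 3 was left out: limma adjusted p was 0.0843, 0.126 and 0.0864 on dropping NCI-H1650 replicates 1, 2 and 3 in turn, and 0.0986 and 0.159 on dropping NCI-H1650Re replicates 1 and 2. With no variance trend its limma adjusted p was 0.0529, and its FDR in the authors' deposited table was 0.119.

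E2F3, one of the activating E2F factors that RB1 binds, was at 8.56, 8.70 and 8.51 FPKM in NCI-H1650 and at 9.79, 8.03 and 8.58 in NCI-H1650Re. The 3 NCI-H1650 values lie inside the range of the NCI-H1650Re values. Its log2 change was 0.03 (SE 0.08, limma adjusted p = 0.824), with an interval of -0.16 to 0.22. E2F1, another activating factor, was far more abundant per length, with an E2F1 to E2F3 ratio of 11.4 ± 0.317 in NCI-H1650 and 11.99 ± 1.44 in NCI-H1650Re (SD, n = 3). Of 9 E2F and DP genes tested, none rose, 1 fell and 8 did not pass (11.1% called, beside 30.5% of all genes tested). Their median log2 change was -0.00029. The fall was that of E2F4, the main partner of p130, from 58.9, 60.9 and 65.3 FPKM to 44.1, 40.8 and 38.4 (log2 change -0.57, SE 0.08, limma adjusted p = 0.00197). E2F5, the other factor that binds p130, was at 0.750 to 0.870 FPKM before and 0.41 to 0.60 FPKM after transformation, below the filter.

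Promoter sequence is shown for 2 members that E2F factors are known to control, RBL1 and E2F3. It is also shown for 2 E2F targets that moved in opposite directions, CDT1 and MCM3. These genes were picked from those that held a match to the motif below. Capitals mark matches to TTTCCCGC, TTTGGCGC, TTTCGCGC or TTTGCCGC, the core E2F motif, on either strand; the 2 matches of RBL1 do not overlap. All are written along the gene's own strand from RefSeq promoters (GRCh38.p14), at chr20:37095998-37096033 (minus strand), chr6:20401816-20401843 (plus), chr16:88803744-88803771 (plus) and chr6:52284899-52284926 (minus).
RBL1: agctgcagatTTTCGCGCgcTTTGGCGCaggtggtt
E2F3: tgaaaagccgGCGGGAAAtccgagtttc
CDT1: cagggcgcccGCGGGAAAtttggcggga
MCM3: ggatggtacgTTTCCCGCcaccgcgggg
The window searched was the 250 bases before each start, and 979 of 35116 such promoters (2.79%) held a match, or 4.18% of those of genes tested here. RefSeq promoters were matched for 8 of the 10 members, with 12 starts in all, of which 2 held a match; CCND1 and CDK2 were not matched. The listed RB1 start lies within the gene. These letters were not found before the listed starts of CCNE1, CCND3, CDK4, CDK6 or CDKN1B. In the list of E2F targets described below, 13 of 28 genes with a promoter held a match. Of 506 tested genes with a match, 76 rose and 59 fell, 26.7% in all, against 30.6% of 8261 genes without one.

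CCND1, encoding cyclin D1, which couples growth factor signals to RB1 phosphorylation, was at 31.1, 33.7 and 44.2 FPKM in NCI-H1650 and at 69.97, 56.5 and 49.1 in NCI-H1650Re. The lines do not overlap, but NCI-H1650 replicate 3 and NCI-H1650Re replicate 3 lie close together. Mean levels of 36.3 ± 6.94 and 58.5 ± 10.6 FPKM (SD, n = 3) gave a 1.61-fold difference (log2 change 0.67, SE 0.16, limma adjusted p = 0.0175). CCND3, encoding cyclin D3, was at 50.4, 52.7 and 65.5 FPKM in NCI-H1650 and at 91.1, 94.9 and 74.3 in NCI-H1650Re, again with both replicate 3 libraries nearest to the other line. Its means of 56.2 ± 8.14 and 86.8 ± 11.0 differed 1.54-fold (log2 change 0.62, SE 0.13, limma adjusted p = 0.00995). CCND3 passed under each of the 15 alternative settings tried. CCND1 passed under 12 of them; limma adjusted p was 0.0632 and 0.0704 on dropping NCI-H1650 replicate 1 or 2, and 0.0573 on dropping NCI-H1650Re replicate 2. In bulk libraries such as these, more RNA per cell and more cells with high levels cannot be told apart.

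The balance between the D cyclins differed by less than its spread. The ratio of CCND3 to CCND1 was 1.48 to 1.62 in NCI-H1650 and 1.30 to 1.68 in NCI-H1650Re. Its log2 values differed by -0.06, beside SDs of 0.07 and 0.18 (n = 3 per line; exact two-sided permutation p = 0.8, adjusted p = 0.8 over 3 ratios). CCND2, encoding cyclin D2, was below the filter at 0.0200 to 0.140 FPKM and 0.160 to 0.200 FPKM, at most 0.162% of the D cyclin RNA in any library. The D cyclins together were at 81.6, 86.5 and 109.7 FPKM in NCI-H1650 and at 161, 152 and 124 in NCI-H1650Re. The authors' deposited table lists log2 fold changes of 0.66 for CCND1 (FDR 0.00033) and 0.60 for CCND3 (FDR 0.000183).

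**Figure D2:**
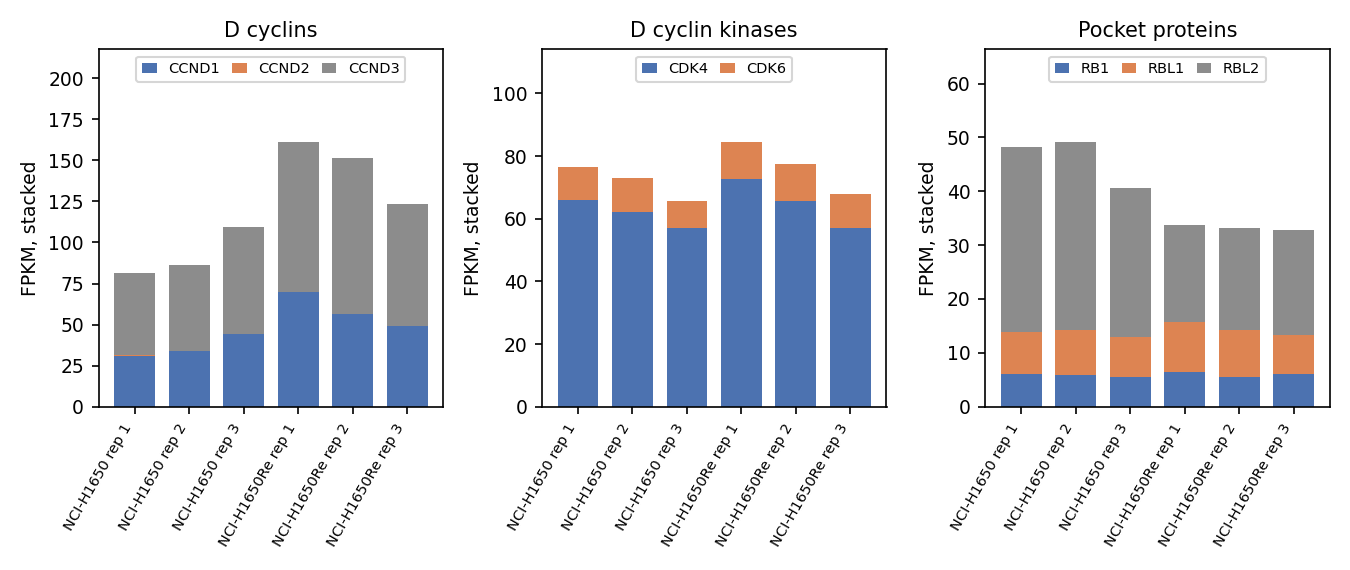
Stacked FPKM per library of the D cyclins (left), CDK4 and CDK6 (middle) and the pocket proteins (right), by line and replicate. The D cyclin stacks are higher in NCI-H1650Re, with CCND3 the larger part in every library, the kinase stacks overlap, and the pocket protein stacks are lower through RBL2.

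CCNE1, encoding cyclin E1, the partner of CDK2 at the end of G1 and itself a target of E2F, was at 22.4, 22.8 and 20.2 FPKM in NCI-H1650 and at 16.8, 18.3 and 18.4 in NCI-H1650Re. Every NCI-H1650Re library was lower, by a small step: means of 21.8 ± 1.37 and 17.8 ± 0.907 FPKM (SD, n = 3; 0.818-fold, log2 change -0.27, SE 0.08, limma adjusted p = 0.0285). The call ended on dropping NCI-H1650 replicate 1 or 2 (limma adjusted p = 0.0896 or 0.123) or NCI-H1650Re replicate 1 or 2 (0.0743 or 0.0781). The authors' deposited table lists a log2 fold change of -0.32 with an FDR of 0.0324. Set beside cyclin D1, the CCNE1 to CCND1 ratio was 0.719, 0.677 and 0.458 in NCI-H1650 and 0.240, 0.324 and 0.375 in NCI-H1650Re.

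Of 6 G1 and S cyclin genes 5 were tested; 3 rose and 2 fell, beside 30.5% called among all genes, with a median log2 change of 0.40. CCNE2, encoding cyclin E2, fell with CCNE1 (log2 change -0.32, limma adjusted p = 0.0282), and CCNA2, encoding cyclin A2 of S and G2 phase, rose with the D cyclins (0.40, limma adjusted p = 0.0314). CCNE2 did not pass on dropping NCI-H1650 replicate 1 or 2 (limma adjusted p = 0.0942 or 0.0855). CCNA2 did not pass on dropping NCI-H1650 replicate 2 or 3 (limma adjusted p = 0.0885 or 0.0689) or NCI-H1650Re replicate 1 or 2 (0.0799 or 0.0970). Of these 5 cyclins, 2 or 1 were called on dropping NCI-H1650 replicate 1 or 2, and 3 or 2 on dropping NCI-H1650Re replicate 1 or 2. Calls over all genes also fell in these fits, from 3587 with all 6 libraries. They were 2386 or 1785 without NCI-H1650 replicate 1 or 2, and 2923 or 1898 without NCI-H1650Re replicate 1 or 2.

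CDK4, the more abundant of the cyclin D kinases, was at 65.9, 62.1 and 56.99 FPKM in NCI-H1650 and at 72.8, 65.5 and 56.97 in NCI-H1650Re. The lines overlap, and replicate 3 was lowest in both at almost the same value. The log2 change was 0.07 (SE 0.10, limma adjusted p = 0.618), with an interval of -0.16 to 0.31. CDK6 was at 10.5, 10.7 and 8.82 FPKM in NCI-H1650 and at 11.7, 11.9 and 10.9 in NCI-H1650Re. Its values did not overlap between the lines, but the gap between 10.7 and 10.9 is narrow and the log2 change of 0.19 (SE 0.09, interval -0.02 to 0.39) did not pass (limma adjusted p = 0.148).

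CDK4 made up 84.0% to 86.6% of the RNA of these kinases in every library. The CDK6 to CDK4 ratio ran from 0.155 to 0.172 in NCI-H1650 and from 0.161 to 0.191 in NCI-H1650Re (exact two-sided permutation p = 0.2, adjusted p = 0.6 over 3 ratios). CDK4 and CDK6 summed to 71.7 ± 5.41 FPKM (SD, n = 3) in NCI-H1650 libraries and to 76.6 ± 8.37 in those of NCI-H1650Re. The ratio of summed D cyclin to summed CDK4 and CDK6 RNA was 1.07, 1.19 and 1.67 in NCI-H1650 and 1.91, 1.96 and 1.82 in NCI-H1650Re; this ratio was chosen after the values were seen and was not tested. The list of G1 kinases and their activators includes the CDK-activating kinase subunits CDK7, CCNH and MNAT1. Of its 7 genes, none was called by limma, beside 30.5% of all genes tested. Only the kinase chaperone CDC37 had an unadjusted limma p under 0.05, and it was lower in every NCI-H1650Re library (limma adjusted p = 0.0733). None of the 7 had an FDR under 0.05 in the authors' deposited table, against 27.9% of all genes there. The median log2 change of the 7 was 0.11. In NCI-H1650Re, 5 of these 7 genes had their lowest level in replicate 3, against 45.1% of all genes tested.

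CDKN1B, encoding p27, which binds and blocks cyclin E with CDK2 and helps assemble cyclin D with its kinases, was at 15.2, 17.7 and 12.9 FPKM in NCI-H1650 and at 15.2, 13.8 and 15.8 in NCI-H1650Re. The NCI-H1650 libraries hold both its highest and its lowest value. The log2 change was -0.02 (SE 0.11, limma adjusted p = 0.893), with an interval of -0.29 to 0.24, the widest among the 6 members that did not pass. Among 5 tested CDK inhibitor genes, 1 rose and 4 did not pass (20% called, beside 30.5% of all genes tested). Their median log2 change was 0.13. The log2 change was positive for 3 of the 5 and negative for 2. Among the positive ones was CDKN2A, at 1.15, 1.25 and 0 FPKM in NCI-H1650 and at 0.77, 0.90 and 1.72 in NCI-H1650Re. It passed the filter only through NCI-H1650Re, so its sign carries little weight. CDKN1A, which did not pass, was at 77.4, 77.7 and 78.2 FPKM in NCI-H1650. In NCI-H1650Re it spread widely, at 38.95, 56.9 and 82.8 FPKM (log2 change -0.45, limma adjusted p = 0.176). CDKN2D, encoding p19 of the INK4 family, which binds CDK4 and CDK6, rose from 6.65, 7.66 and 7.16 to 11.4, 11.5 and 10.2 FPKM (log2 change 0.56, limma adjusted p = 0.00269).

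**Figure D3:**
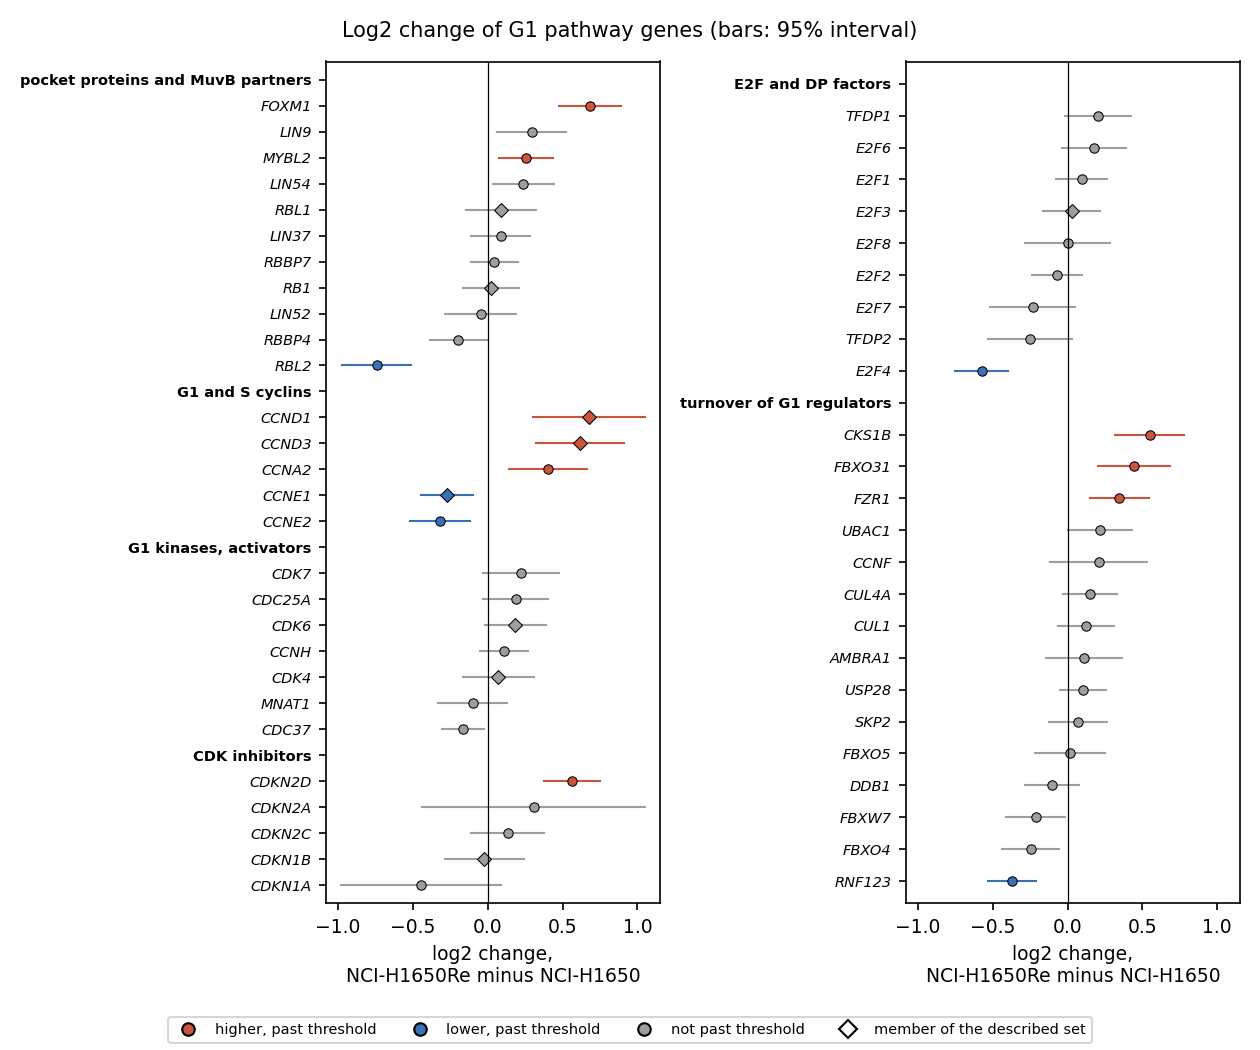
Log2 change of every tested gene in 6 lists of the G1 pathway, NCI-H1650Re minus NCI-H1650, with 95% limma intervals; diamonds are members, red and blue are genes past the threshold and grey the rest. The cyclins split into 3 higher and 2 lower, no kinase gene is past the threshold, and RBL2 and E2F4 stand lowest in their lists.

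Of 15 tested regulators of the stability of these proteins, 3 rose, 1 fell and 11 did not pass (26.7% called, beside 30.5%; median log2 change 0.11). CKS1B, the cofactor with which SKP2 marks p27 for destruction, rose from 77.8 to 114 FPKM on average (log2 change 0.55, limma adjusted p = 0.00649), while SKP2 itself was at 9.08 to 11.1 FPKM and 10.7 to 10.9 FPKM (limma adjusted p = 0.541). RNF123, a ubiquitin ligase for p27 outside the nucleus, fell (log2 change -0.37, limma adjusted p = 0.0065). FBXO31, which targets cyclin D1, rose (0.44, limma adjusted p = 0.0166), as did FZR1, the activator of the anaphase-promoting complex in G1 (0.35, limma adjusted p = 0.0196). FBXO31 did not pass on dropping NCI-H1650 replicate 1 or 2 (limma adjusted p = 0.0615 or 0.0718) or NCI-H1650Re replicate 2 (0.0665). FZR1 did not pass on dropping NCI-H1650 replicate 1 or 3 (limma adjusted p = 0.0643 or 0.0518) or NCI-H1650Re replicate 1 or 2 (0.0545 or 0.0657). The number of these regulators called was 2 on dropping NCI-H1650 replicate 1 or NCI-H1650Re replicate 2, and 7 on dropping both replicate 3 libraries. Over all genes, 2386 of 11778 were called without NCI-H1650 replicate 1 and 1898 of 11757 without NCI-H1650Re replicate 2. Without both replicate 3 libraries, 5080 of 11767 were called, so the range of the list is not a result about these regulators.

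Of 31 tested genes that E2F switches on for DNA synthesis and its repair, 2 rose, 2 fell and 27 did not pass. That is 12.9%, beside 30.5% of all genes, and the median log2 change was -0.05. CDT1 (log2 change 0.70, limma adjusted p = 0.00181), which loads the replicative helicase, and TIPIN (0.51, limma adjusted p = 0.0146), a replication fork protein, rose. MCM3 (-0.53, limma adjusted p = 0.00489) and MCM4 (-0.36, limma adjusted p = 0.0415), subunits of that helicase, fell. TIPIN did not pass on dropping replicate 2 of NCI-H1650 (limma adjusted p = 0.0585) or of NCI-H1650Re (0.0628). MCM4 did not pass when any 1 library except NCI-H1650Re replicate 1 was left out: limma adjusted p was 0.109, 0.137 and 0.0640 on dropping NCI-H1650 replicates 1, 2 and 3 in turn, and 0.124 and 0.0572 on dropping NCI-H1650Re replicates 2 and 3. With no variance trend its adjusted p in limma was 0.0505.

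The list's spread within NCI-H1650Re was one-sided. NCI-H1650Re replicate 3 held the lowest level of that line for 28 of the 31 targets (90.3%, against 45.1% of all genes), with a median of 0.14 below the line's mean on the log2 scale. NCI-H1650Re replicate 1 held the highest for 25 of them. In NCI-H1650, replicate 3 was lowest for 20 of the 31 (64.5%, against 43.3%). On dropping NCI-H1650Re replicate 3, 7 targets rose and 1 fell, while 2476 of all 11767 genes tested rose and 2002 fell. On dropping replicate 3 of both lines 7 targets rose and 6 fell, beside 2792 and 2288 of all 11767 genes. The number of targets called was 2 on dropping replicate 2 of either line. Over all genes those fits called 1785 of 11763 without NCI-H1650 replicate 2 and 1898 of 11757 without NCI-H1650Re replicate 2. The number called thus shifted over all genes too. The part of replicate 3 in the result was not tested.

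**Figure D4:**
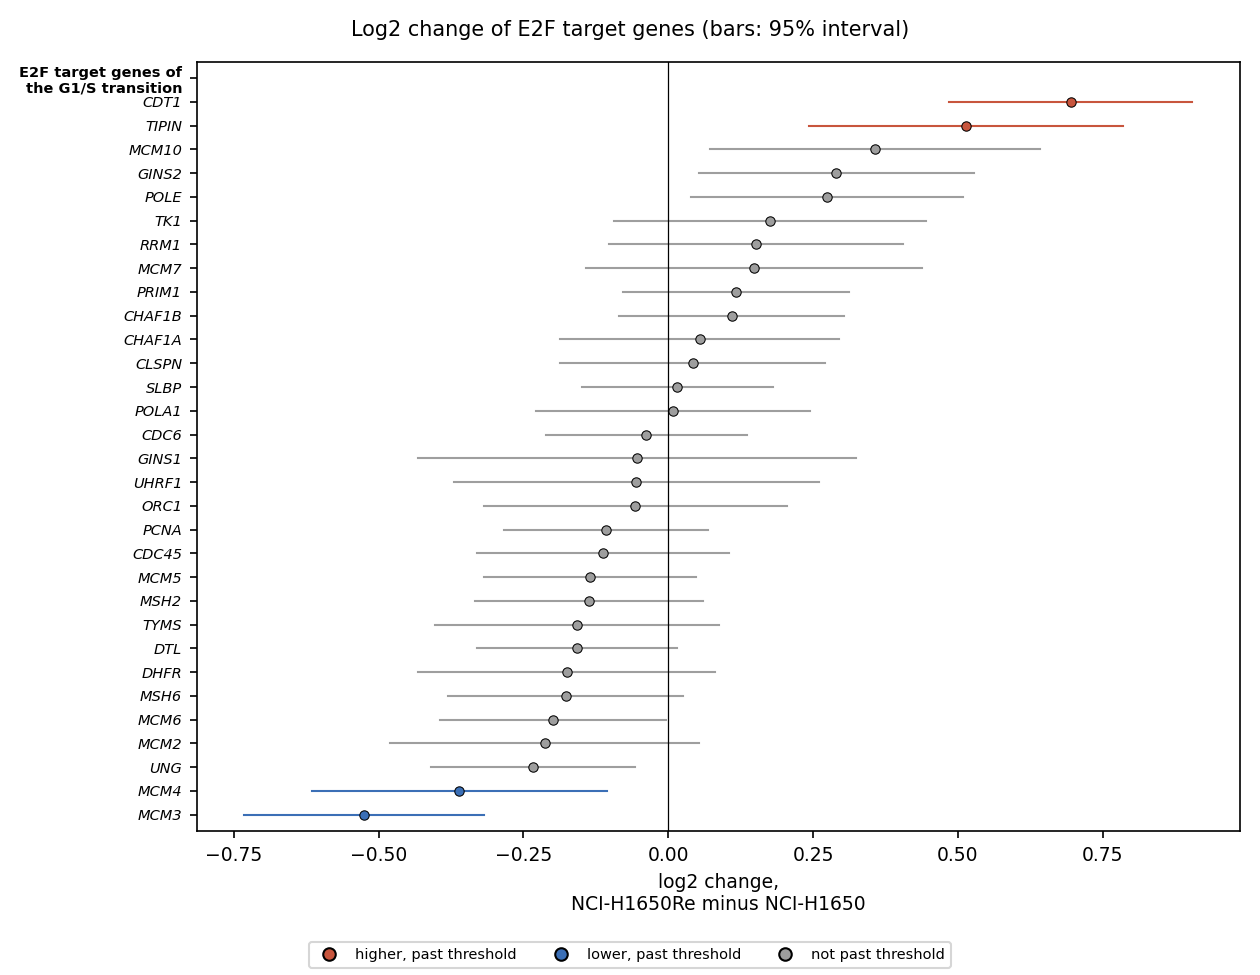
Log2 change of the 31 tested E2F target genes, NCI-H1650Re minus NCI-H1650, sorted, with 95% limma intervals. The points run from -0.53 for MCM3 to 0.70 for CDT1, most intervals cross 0, and 4 genes are past the threshold.

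In order of mean level, NCI-H1650 had CDK4 (61.7 FPKM) before CCND3 (56.2), CCND1 (36.3), CCNE1 (21.8), CDKN1B (15.3), CDK6 (10.02), E2F3 (8.59), RBL1 (7.85) and RB1 (5.85). In NCI-H1650Re the order was the same except that CCND3 (86.8 FPKM) stood before CDK4 (65.1). The CCND3 to CDK4 ratio was 0.764, 0.848 and 1.15 in NCI-H1650 and 1.25, 1.45 and 1.30 in NCI-H1650Re. Neighbours whose libraries overlapped were CDK4 and CCND3 in NCI-H1650, CDK4 and CCND1 in NCI-H1650Re, and RBL1 and E2F3 in NCI-H1650Re. RB1 had the lowest level of the 9 members in every library.

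The members that were called lie on different chromosomes, among genes whose median change was smaller or of the other sign. Positions were taken from GENCODE 29 (GRCh38) by Ensembl identifier, and each gene was set beside the 12 tested genes on either side. Neighbour counts stand beside 16.6% rising and 13.9% falling over all genes tested. CCND1 lies at chr11:69641087-69654474, where the 24 neighbours had a median log2 change of 0.08 (9 rose, 2 fell). CCND3 lies at chr6:41934933-42050357, with a neighbour median of 0.21 (5 rose, none fell), and CCNE1 at chr19:29811898-29824308, with a neighbour median of 0.07 (4 rose, 3 fell). RB1 lies at chr13:48303726-48599436, where the neighbour median was 0.09.

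For all called non-member genes of the pathway except RNF123 and MCM4, the neighbour median had the same sign as the gene. The medians of largest size were those around 4 genes on chromosome 16, RBL2, E2F4, FBXO31 and CDT1. Neighbours of pathway genes that were not called were compared for members only. The shares over all genes tested were again 16.6% rising and 13.9% falling. RBL2 at chr16:53433977-53491649 had a neighbour median of -0.68, with 20 of 24 neighbours falling, and E2F4 at chr16:67192169-67198918 one of -0.52, with 19 falling. Toward the end of the long arm the direction turned: FBXO31 at chr16:87326987-87392142 had a neighbour median of 0.65 and CDT1 at chr16:88803213-88809258 one of 0.50, with 19 of 24 neighbours rising around each. The neighbours of FBXO31 and CDT1 are in part the same genes. MCM3 at chr6:52264009-52284881 had a neighbour median of -0.32 (10 of 24 fell). In bulk RNA, a change of the whole region and a change of the single gene cannot be told apart for these genes.

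**Figure D5:**
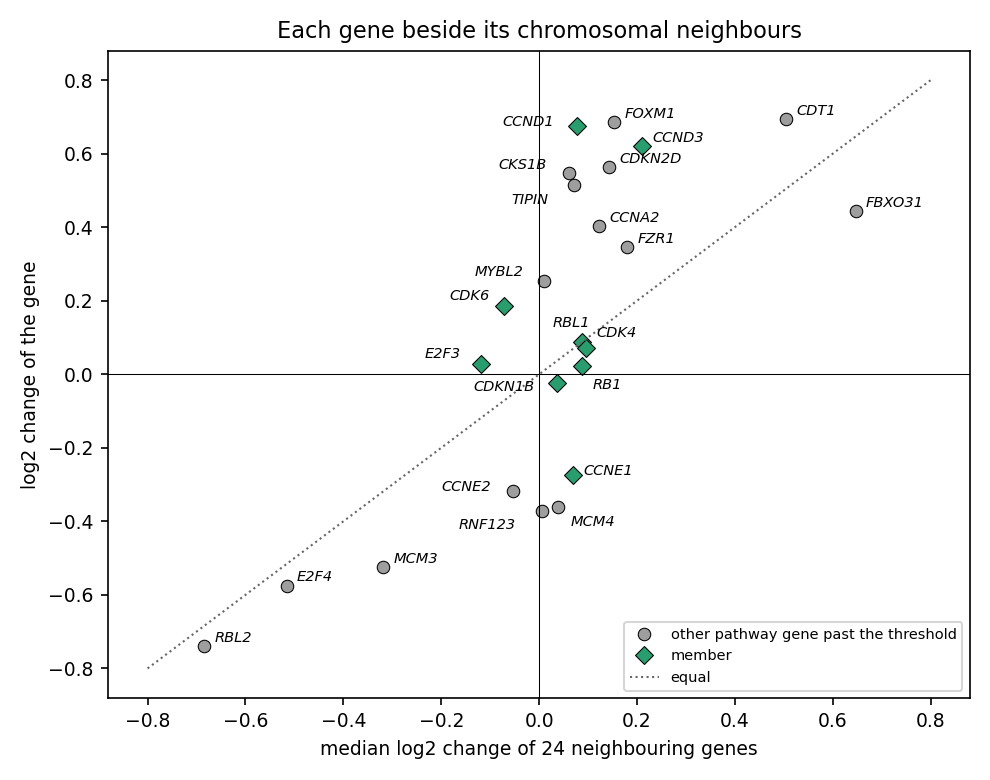
Log2 change of each gene (vertical) against the median log2 change of its 24 nearest tested genes (horizontal); green diamonds are members, grey circles other pathway genes past the threshold, and the dotted line marks equality. RBL2, E2F4, MCM3, FBXO31 and CDT1 lie toward the line away from 0, while CCND1, CCND3 and CCNE1 lie off it with neighbour medians of 0.07 to 0.21.

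CCND1 had the largest log2 change among the members, and the genes whose log2 levels followed it most closely over the 6 libraries were RAPGEF1 (Pearson r = 0.996), RANGAP1 (0.994) and PHLDA1 (0.993). These values describe 6 points in 2 groups and rest on the difference between the lines as well as on the spread within them.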

How the data were processed

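RNA-seq FPKM values per gene and library, for 12659 genes, are those of the authors' deposited table; 11909 of these genes carry an Ensembl identifier found in GENCODE 29. The authors' read counts were used for marked genes only, none of them a member, to estimate relative depth, so the counting error of single members is unknown. The FDR, an adjusted p-value, and the log2 fold change of each gene are the authors' own, per the file headers. Tools named in the submitters' processing notes are HISAT2, Bowtie2, RSEM and DESeq2, with no version. The notes list the mouse build mm10, although identifiers are human, and no human build was found in the labels or headers.

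The members and gene lists were chosen with earlier results of these data known. Genes whose mean reached 1 FPKM in one line or both were fitted on log2(FPKM + 1) in limma 3.58.1 (R 4.3.3) with a variance trend and the line as the only term. Benjamini-Hochberg adjustment ran over all genes with a threshold of 0.05, and the fit was tested on simulated data. Non-members were named by rule: up to 4 called genes per list with the largest change. SKP2, E2F1, E2F5, CCND2, SYP, CDC37, CDKN1A and CDKN2A, the further ratios and the summed levels were chosen once values were known. Neighbours were the 12 tested genes on either side. The CDKN1B to CDK2 ratio was planned but not run. Figures used matplotlib 3.10.9 under Python 3.11.15.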

Additional observations from a re-analysis of the deposited data

How the results depend on the processing

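Calls of CCND1, CCND3 and CCNE1 held under 8 settings of pseudocount, filter, scaling, variance trend and replicate block, and without both replicate 3 libraries. Each kept its direction throughout; single libraries ended the calls of CCND1 and CCNE1. Leaving out 1 library at a time gave 1785 to 4478 called genes, 1 to 3 members, 1 to 5 cyclins, 0 to 1 kinase genes, 1 to 2 inhibitors, 1 to 2 E2F and DP genes, 2 to 5 turnover regulators and 2 to 8 E2F targets. Without both replicate 3 libraries, 5080 of all 11767 genes tested were called, against 3587 of 11764 with all 6 libraries. The same fit called 5 of 11 pocket protein and MuvB genes, 2 of 7 kinase genes and 2 of 5 inhibitors. It also called 4 of 9 E2F and DP genes, 7 of 15 turnover regulators and 13 of 31 E2F targets. The number called thus rose over all genes as well as in these lists. Median-of-ratios scaling called 1 kinase gene, and with no filter 2 E2F and DP genes were called. The cause of these differences was not tested.

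Of the 6 members that did not pass, RB1, CDK4, CDKN1B and E2F3 changed sign under some settings, while RBL1 and CDK6 did not. The log2 change of RB1 was -0.00089 with median-of-ratios scaling, -0.0073 with quantile normalization and -0.0193 without both replicate 3 libraries. Leaving out 1 library at a time gave -0.0211 to 0.0715 for RB1, -0.0109 to 0.163 for CDK4, -0.131 to 0.0822 for CDKN1B and -0.0441 to 0.0843 for E2F3, and 0.0164 to 0.186 for RBL1 and 0.104 to 0.231 for CDK6, which did not pass in any of these fits. For the log2 ratios it gave -0.147 to 0.0368 for CCND3 to CCND1, -0.0131 to 0.188 for RBL1 to RB1 and 0.0775 to 0.1999 for CDK6 to CDK4, where dropping both replicate 3 libraries gave 0.0439. Same-numbered libraries were not shown to be pairs, since their deviations from the line mean correlated at r = 0.173, -0.0369 and 0.211, and not every library correlated best with its own number. With the replicate number as a block, 3 members, 4 pocket protein and MuvB genes and 6 E2F targets were called, and 3522 genes in all, against 3, 3, 4 and 3587 without it. Depth of single members is unknown, which limits what can be said of small differences.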
